A study of Mus musculus with 13 samples.

Results

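The receptors of the glial cell line-derived neurotrophic factor (GDNF) family measured here were Gfra1, Gfra2, Gfra4 and Ret, with the co-receptors Ncam1 and Sdc3, 6 of the 23427 genes listed in at least 1 of the 2 count tables. The genes were chosen by name, with earlier results of these cells in view. All 6 are listed in both tables. The cells came from microdissected claustrum, a thin sheet of forebrain neurons beneath the insular cortex, of 4 mature male C57BL/6 mice, and were picked by hand for single-cell RNA sequencing (scRNA-seq). In 1 mouse, called the blindly sampled mouse, cells were picked without regard to a tracer, and a retrograde virus carrying GFP (rAAV2-retro-CAG-GFP) injected in the anterior cingulate cortex served to outline the tissue for dissection. The other 3 mice, called projection mice 1 to 3, received green retrobeads in the lateral entorhinal cortex (LEC) and red retrobeads in the retrosplenial cortex (RSC), so that a labeled cell had an axon in the injected area, and unlabeled cells of the same mice were picked too. A bead label depends on uptake at the injection site, so an unlabeled cell may also project there.

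Ligands of the GDNF family bind a GFRα receptor, which is held in the outer membrane by a lipid anchor and has no intracellular part. GFRα1 prefers GDNF, GFRα2 neurturin and GFRα4 persephin, and the bound pair then recruits the receptor tyrosine kinase Ret. The neural cell adhesion molecule Ncam1 can take the place of Ret in GDNF signaling, and syndecan-3 (Sdc3), a heparan sulfate proteoglycan of neurons, binds ligands of the family as well. GDNF is best known as a survival factor for midbrain dopamine neurons, motor neurons and enteric neurons, and GFRα1 is found in many forebrain neurons that lack Ret.

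Of 1112 harvested cells, 1011 were kept, selected on their own counts: each held at least 1 count of Snap25, a synaptic gene of neurons, and 1 of Slc17a7, a vesicular glutamate transporter of excitatory neurons. The cells filled 13 plates, 3 from the blindly sampled mouse and 10 from the projection mice, and numbered 238, 224, 220 and 329 for the blindly sampled mouse and projection mice 1 to 3. The study sequenced 3 plates on 1 flow cell and the other 10 on another, without naming them. These numbers match the plates of the blindly sampled mouse and of the projection mice. If the plates were split that way, mouse and run cannot be told apart. Median total counts per cell were 26023 in the blindly sampled mouse and 138535 to 154262 in the projection mice. Cells were called Synpr-high at 200 CPM (counts scaled to a common total per cell or sum) or more of Synpr, which encodes synaptoporin, a marker of the claustrum core (438 cells), and Synpr-low otherwise (573 cells). The summed level of 5 core markers, Synpr among them, was 5922 to 6236 CPM in Synpr-high and 322 to 711 CPM in Synpr-low cells, and that of 5 shell markers 72.8 to 136 CPM against 1070 to 2458 CPM. Summed oligodendrocyte markers were 24.6 to 312 CPM in Synpr-high and 44.5 to 492 CPM in Synpr-low cells, and summed astrocyte, microglial and endothelial markers stayed at or below 8.14 CPM in both. Summed inhibitory neuron markers were 0 to 141 CPM in Synpr-high and 0 to 31.8 CPM in Synpr-low cells, and the part of these lists in the class differences was not tested. RSC-labeled cells numbered 247, of which 213 (86.2%) were Synpr-high, LEC-labeled cells 286, of which 45 (15.7%) were, and unlabeled cells of the projection mice 240, of which 67 (27.9%) were. In the projection mice 343 cell barcodes recurred between plates, which reuse 1 set of barcodes, and no 2 cells had identical counts.

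Gfra1, the GDNF receptor, was concentrated in Synpr-high cells. Of its 14081 counts, 96.2% lay in Synpr-high cells. Counts of all cells of a mouse and class were summed, so that fewer expressing cells and less RNA per cell could not be told apart in these levels. The summed level in Synpr-high cells was 211 CPM in the blindly sampled mouse and 194, 197 and 246 CPM in projection mice 1 to 3. In Synpr-low cells it was 7.95, 5.72, 8.88 and 7.45 CPM in the same order. All 4 mice showed the difference and the groups stood far apart, at 212 ± 23.8 against 7.5 ± 1.33 CPM (SD, n = 4 mice). The ratio within a mouse ran from 22.2 to 34.0, and the log2 fold change was 4.83 (SE 0.18). It was 3.82 when the Cluster 2 cells were left out of the Synpr-low class and 5.07 when the Cluster 3 cells were. The study picked Gfra1 on these cells as a marker of the Synpr-high class, so the contrast is a description with no test.

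The share of cells with a Gfra1 count separated the classes as well. With every cell thinned to 20000 counts, which left 927 cells, Gfra1 was detected in 88.4% ± 1.44 of Synpr-high and 6.65% ± 1.48 of Synpr-low cells (SD, n = 4 mice). Without thinning the shares were 93.4% ± 2.71 and 12.3% ± 2.0. The median Synpr-high cell held 180 CPM of Gfra1, with quartiles of 95.1 and 299 CPM. Few cells lay near the Synpr limit. The 13 cells between 100 and 200 CPM of Synpr, the nearest at 199.9 CPM, held 14.7 CPM of Gfra1 in sum, with a count in 4 cells. The 8 cells between 200 and 400 CPM, the nearest at 209 CPM, held 51.3 CPM, with a count in 5 cells.

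**Figure D1:**
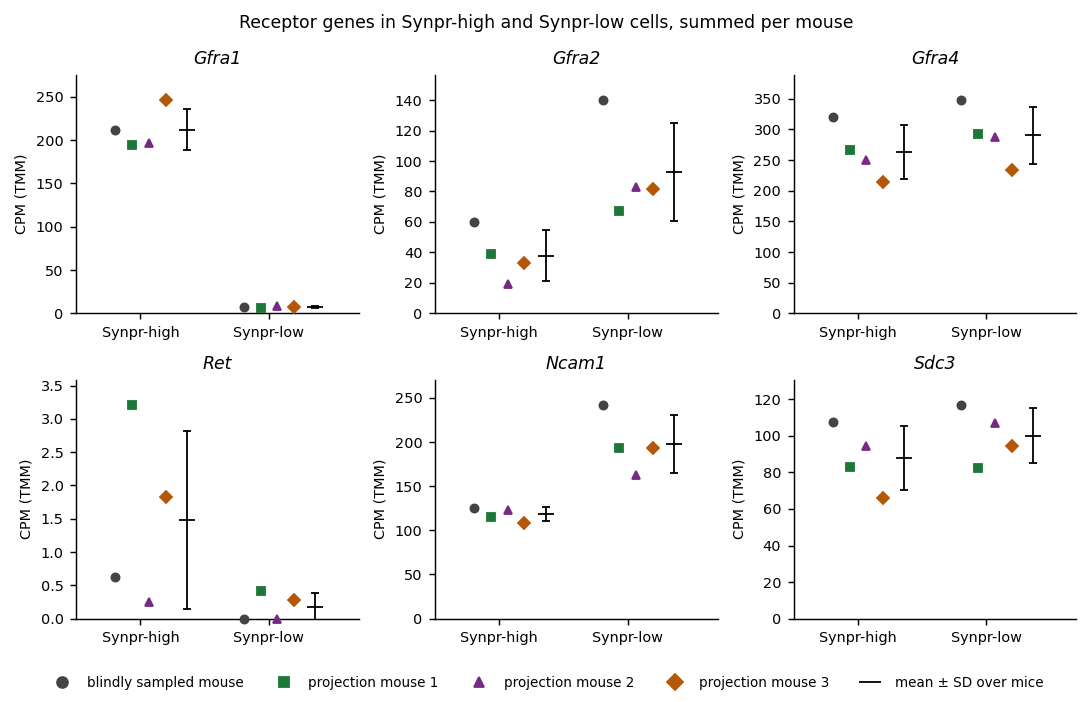
Summed level (CPM) of each receptor gene in Synpr-high and Synpr-low cells, 1 point per mouse, marked alike in both classes, with the mean and SD over 4 mice. Gfra1 was near 200 CPM in Synpr-high cells of every mouse and below 9 CPM in Synpr-low cells, Gfra2 and Ncam1 were higher in Synpr-low cells of every mouse, and Gfra4 and Sdc3 overlapped between classes.

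Gfra2, the neurturin receptor, had the opposite slope to Gfra1. Synpr-high cells held 60.0 CPM in the blindly sampled mouse and 39.3, 19.6 and 32.9 CPM in projection mice 1 to 3. Synpr-low cells held 140, 66.9, 83.1 and 81.6 CPM. The level was lower in Synpr-high cells in 4 of 4 mice and the groups did not overlap, at 38.0 ± 16.9 against 92.9 ± 32.2 CPM (SD, n = 4). The log2 fold change was -1.30 (SE 0.33), with an adjusted p of 0.0372 (edgeR's quasi-likelihood test, Benjamini-Hochberg adjustment, 13640 genes), and the ratio of Synpr-low to Synpr-high ran from 1.70 to 4.25 within a mouse. The adjusted p ranged from 5.57e-04 to 0.177 over the alternatives, and the call was lost without projection mouse 1 (adjusted p 0.104), projection mouse 2 (0.12) or projection mouse 3 (0.177). It was also lost with the Synpr limit at 100 CPM (0.0807) and without the Cluster 2 cells among Synpr-low cells (0.0846). In thinned cells Gfra2 was detected in 27.8% ± 7.76 of Synpr-high and 59.0% ± 8.06 of Synpr-low cells (SD, n = 4 mice).

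Ncam1, the adhesion molecule that can carry GDNF signals, was also lower in Synpr-high cells. It stood at 126 CPM in Synpr-high cells of the blindly sampled mouse and at 116, 123 and 109 CPM in projection mice 1 to 3. Synpr-low cells held 241, 193, 162 and 193 CPM. The groups did not overlap and all 4 mice agreed in direction, at 118 ± 7.67 against 198 ± 32.7 CPM (SD, n = 4). The log2 fold change was -0.74 (SE 0.13), with an edgeR adjusted p of 0.00643 that ranged from 2.22e-05 to 0.0732 over the alternatives and was above the threshold of 0.05 without projection mouse 1 (0.0605) or projection mouse 3 (0.0732). Thinned cells with an Ncam1 count made up 73.3% ± 5.84 of Synpr-high and 85.0% ± 3.48 of Synpr-low cells (SD, n = 4 mice). Gfra2 and Ncam1 are among the genes that the study listed, from the same cells, for its Cluster 2 and Cluster 3, so their direction here is not independent evidence.

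Gfra4, the persephin receptor, was detected in nearly every cell of either class and did not pass the test. Synpr-high cells held 320 CPM in the blindly sampled mouse and 267, 249 and 215 CPM in projection mice 1 to 3, and Synpr-low cells held 348, 293, 288 and 234 CPM. The level was slightly lower in Synpr-high cells within each of the 4 mice, by 0.15 on the log2 scale (SE 0.15, edgeR adjusted p 0.713), while the classes overlapped between mice. Detection in thinned cells was 87.1% ± 6.34 in Synpr-high and 86.5% ± 4.54 in Synpr-low cells (SD, n = 4 mice).

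Sdc3 overlapped between the classes too. It was 107 CPM in Synpr-high cells of the blindly sampled mouse and 83.2, 94.2 and 66.1 CPM in projection mice 1 to 3, against 117, 82.4, 107 and 94.7 CPM in Synpr-low cells. The log2 fold change was -0.19 (SE 0.17, edgeR adjusted p 0.646), with a lower level in 3 of 4 mice. Detection was 54.6% ± 7.65 and 56.1% ± 4.32 of thinned cells in Synpr-high and Synpr-low (SD, n = 4 mice). Of the 4 members tested here, Gfra2 and Ncam1 were called, both lower in Synpr-high cells, where 8.81% of all genes were called in either direction (1202 genes, and 1996 with the mouse as a block).

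Ret, the signaling kinase of the family, was rare. It had 131 counts in 20 of the 1011 cells (1.98%), on 9 plates, and 63 of these counts fell in 3 cells. The values are taken as reads made with PCR, so several counts in a cell may stem from 1 molecule, and 5 of the 20 cells held a single count while the highest cell held 33. Synpr-high cells held 2, 59, 3 and 51 Ret counts in the blindly sampled mouse and projection mice 1 to 3, and Synpr-low cells 0, 8, 0 and 8. The counts of projection mice 1 and 3 made up most of the total in both classes. Of the 20 cells, 15 were Synpr-high and 5 Synpr-low, and the level was 1.48 ± 1.34 against 0.174 ± 0.208 CPM (SD, n = 4 mice), higher in Synpr-high cells in 4 of 4 mice with overlap between mice. Ret did not pass the filter on low counts in this comparison and has no test there. In thinned cells it was detected in 2.12% ± 1.49 of Synpr-high and 0.140% ± 0.281 of Synpr-low cells (SD, n = 4 mice).

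Clusters made without the 6 receptor genes and the genes of their pathway gave the levels by cell type. Cluster 1, core-like by its markers (436 cells), held 431 of the 438 Synpr-high cells. The Synpr-low cells fell in the shell-like Cluster 2 (454 of its 458 cells) and the layer 6-like Cluster 3 (114 of its 117 cells), with 5 in Cluster 1. The Cluster 1 level of Gfra1 averaged 215 ± 26.3 CPM (SD, n = 4 mice, as for the other cluster values). Cluster 3 followed at 12.98 ± 10.03 CPM and Cluster 2 at 6.15 ± 1.82 CPM, a pair that did not differ beyond their spread.

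Gfra2 was on average lowest in the core-like cells. Clusters 2 and 3, at 99.9 ± 49.2 and 83.9 ± 35.2 CPM, did not differ beyond their spread, and Cluster 1 averaged 37.5 ± 15.7 CPM. Cluster 1 was the lowest in each projection mouse, while in the blindly sampled mouse Cluster 3 was lower, at 45.2 against 57.7 CPM. Ncam1 had a graded order, from 295 ± 51.8 CPM in Cluster 3 over 174 ± 20.4 CPM in the shell-like to 117 ± 5.93 CPM in the core-like cells, each step larger than the SDs. Sdc3 had 109.8 ± 14.2 CPM in shell-like, 87.3 ± 16.0 CPM in core-like and 58.3 ± 26.3 CPM in layer 6-like cells, each step between 1 and 2 SDs of the wider of the pair. Gfra4 was 296 ± 43.5, 272 ± 87.0 and 263 ± 36.6 CPM in Clusters 2, 3 and 1, which did not differ beyond the spread. Ret averaged 1.5 ± 1.37 CPM in core-like, 0.361 ± 0.722 CPM in layer 6-like and 0.113 ± 0.152 CPM in shell-like cells, with SDs about as large as the levels.

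**Figure D2:**
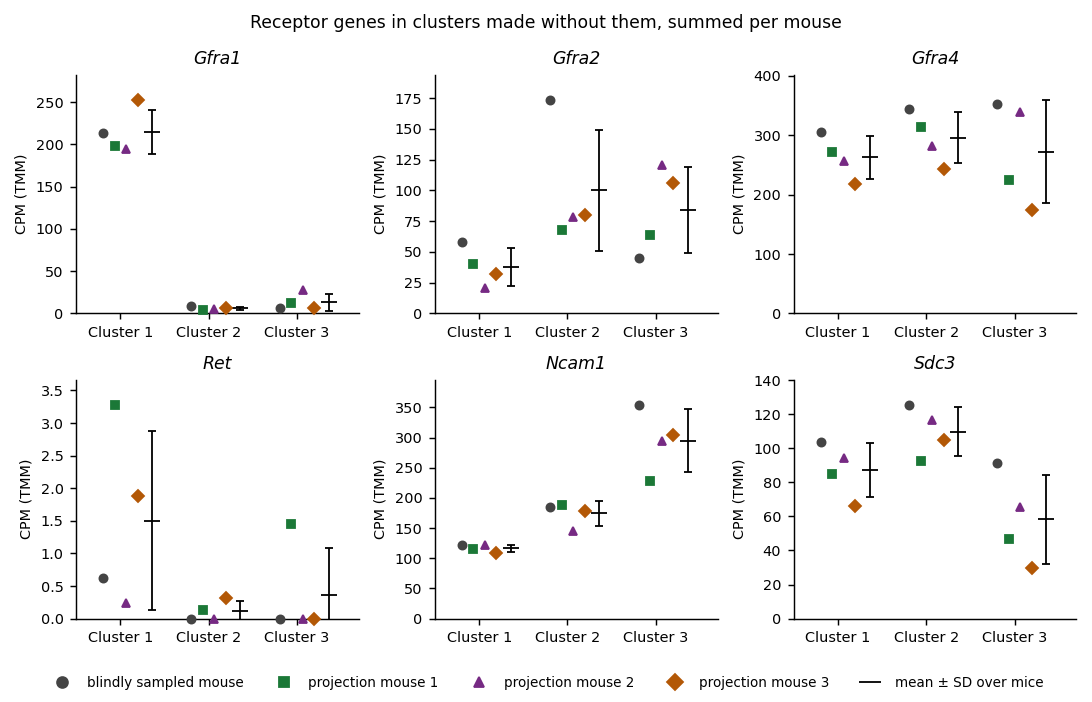
Summed level (CPM) of each receptor gene in the core-like Cluster 1, shell-like Cluster 2 and layer 6-like Cluster 3, 1 point per mouse with the mean and SD over 4 mice. Gfra1 was high in Cluster 1 at 215 CPM and at or below 27.4 CPM in the other clusters of any mouse, Ncam1 was highest in Cluster 3 at 295 CPM, and Gfra4 averaged 263 to 296 CPM over the clusters, with single mice from 173 to 352 CPM.

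The tracer labels, which were not made from expression values, asked whether receptor levels went with the projection target. Gfra1 was higher in RSC-labeled cells, at 169, 192 and 221 CPM in projection mice 1 to 3, than in LEC-labeled cells, at 65.2, 39.0 and 41.9 CPM. The groups did not overlap, with means of 194 ± 26.1 and 48.7 ± 14.4 CPM (SD, n = 3), and unlabeled cells lay between them at 82.5 ± 42.2 CPM. The log2 fold change was 1.99 (SE 0.32, edgeR adjusted p 0.00643 over 13976 genes), higher in 3 of 3 mice with ratios of 2.59 to 5.27. The adjusted p ranged from 1.14e-10 to 0.105 over the alternatives and missed the threshold without projection mouse 2 (0.105). Gfra1 was called and the other 5 members were not, where 3.95% of all genes were called. RSC-labeled cells were mostly Synpr-high and LEC-labeled cells mostly Synpr-low, so this contrast contains that of the classes. The study picked Gfra1 on these cells as a marker of the Synpr-high class, so its adjusted p here is not independent evidence. Summed inhibitory neuron markers were 6.91 to 200 CPM in RSC-labeled and 0.162 to 0.886 CPM in LEC-labeled cells, and their part in the result was not tested.

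Gfra2 and Ncam1 had the reverse direction by projection and did not pass the test, though each passed under some alternatives. Gfra2 was 41.8, 27.1 and 43.7 CPM in RSC-labeled and 65.3, 63.6 and 55.8 CPM in LEC-labeled cells of projection mice 1 to 3. The groups did not overlap, at 37.5 ± 9.11 against 61.6 ± 5.09 CPM (SD, n = 3), with a log2 fold change of -0.71 (SE 0.22) in the same direction in 3 of 3 mice. Its edgeR adjusted p was 0.11. It passed in thinned cells by edgeR (0.0261) and by DESeq2 (0.0333), within a range of 0.0261 to 0.452 over the alternatives. Ncam1 was 122, 104 and 97.4 CPM in RSC-labeled and 178, 129 and 180 CPM in LEC-labeled cells. These groups did not overlap either, at 108 ± 12.8 against 162 ± 29.0 CPM (SD, n = 3), with a log2 fold change of -0.59 (SE 0.15), lower in 3 of 3 mice. The edgeR adjusted p was 0.056. It passed by edgeR in thinned cells (0.0147), without the filter on low counts (0.0426) and without Cluster 3 cells (0.0441), and by DESeq2 (0.00532), within a range of 0.00532 to 0.471.

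Gfra4, Sdc3 and Ret did not pass the test by projection. Gfra4 was 256 ± 20.8 CPM in RSC-labeled and 297 ± 35.6 CPM in LEC-labeled cells (SD, n = 3), a log2 fold change of -0.21 with an edgeR adjusted p of 0.548. Sdc3 was 82.4 ± 19.0 and 91.1 ± 8.0 CPM (SD, n = 3), a log2 fold change of -0.15 with an edgeR adjusted p of 0.838. Ret had 42, 0 and 50 counts in RSC-labeled cells of projection mice 1 to 3, 0, 0 and 7 in LEC-labeled cells and 25, 3 and 2 in unlabeled cells. Each group held a mouse with few or no Ret counts, and the edgeR adjusted p was 0.328. No Ret count was seen in the 45 LEC-labeled Synpr-high cells, which allows a share of up to 6.67% of cells, a limit that covers counting error only.

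**Figure D3:**
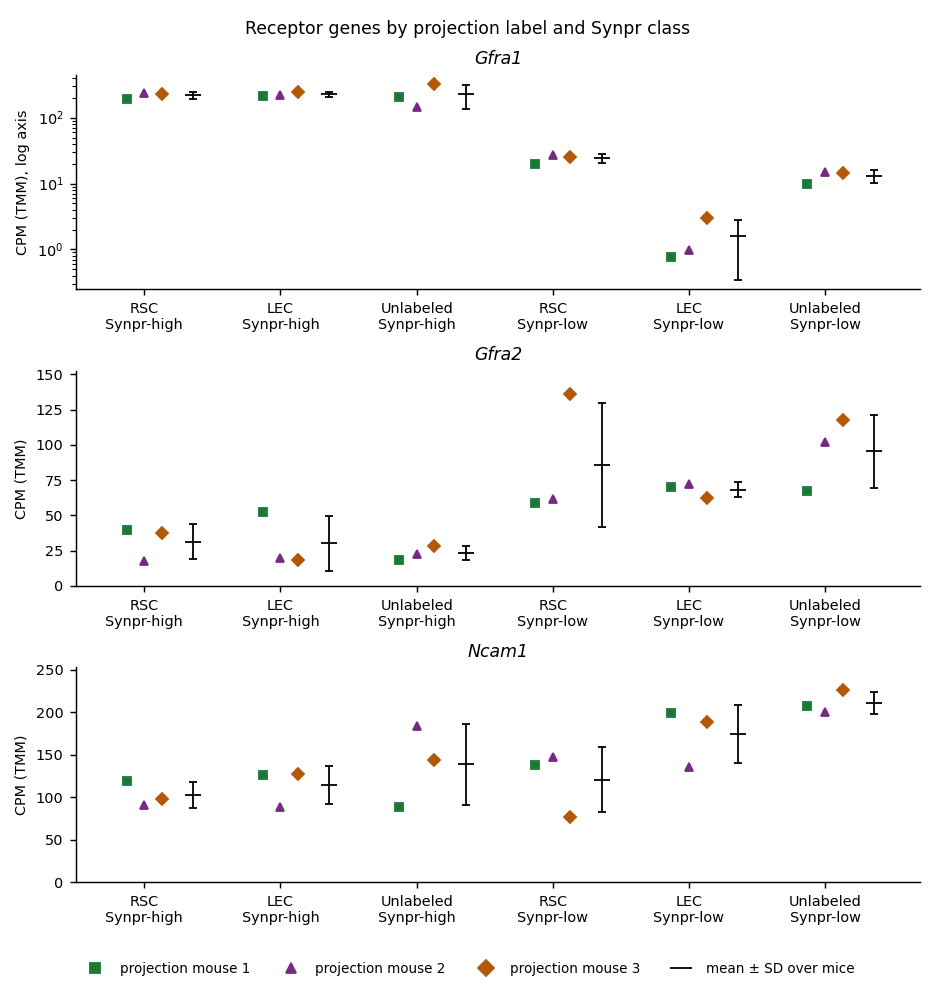
Summed level (CPM) of Gfra1, Gfra2 and Ncam1 by projection label and Synpr class, 1 point per projection mouse with the mean and SD over 3 mice. The Gfra1 panel has a log axis. Gfra1 was 219 to 227 CPM on average in all 3 Synpr-high groups and fell from 24.2 to 1.59 CPM between RSC-labeled and LEC-labeled Synpr-low cells.

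Within Synpr-high cells Gfra1 did not separate the projections. It was 189, 236 and 230 CPM in RSC-labeled and 213, 219 and 249 CPM in LEC-labeled cells of projection mice 1 to 3. The groups overlapped, at 219 ± 25.5 and 227 ± 19.3 CPM (SD, n = 3), and unlabeled Synpr-high cells were at 226 ± 88.0 CPM. The log2 fold change was -0.05 (SE 0.33), higher in 1 of 3 mice. No gene was called in this comparison by edgeR (0.0% of 13162), where 724 had an unadjusted p under 0.05 and DESeq2 called 30. The Sdc3 groups did not overlap and were not called, at 82.4 ± 19.9 CPM in RSC-labeled and 54.7 ± 4.35 CPM in LEC-labeled cells (SD, n = 3), higher in 3 of 3 mice (log2 fold change 0.59, SE 0.33, edgeR adjusted p 0.999). Gfra2, Gfra4 and Ncam1 overlapped, with log2 fold changes of 0.05, -0.04 and -0.15.

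Within Synpr-low cells Gfra1 was higher in those labeled from RSC. RSC-labeled cells held 19.8, 27.2 and 25.6 CPM in projection mice 1 to 3, and LEC-labeled cells 0.777, 0.970 and 3.01 CPM. These levels rest on few Gfra1 counts, 32, 41 and 29 in RSC-labeled and 8, 10 and 54 in LEC-labeled cells. The groups did not overlap, at 24.2 ± 3.87 and 1.59 ± 1.24 CPM (SD, n = 3), and unlabeled Synpr-low cells lay between at 13.2 ± 2.79 CPM. The log2 fold change was 3.82 (SE 0.42, edgeR adjusted p 4.55e-04), higher in 3 of 3 mice with ratios of 8.50 to 28.0, where 0.395% of genes were called and no other member was. Since the study picked Gfra1 on these cells as a marker of the Synpr-high class, this adjusted p is not independent evidence. With cells thinned to 20000 counts the log2 fold change was 2.96 and the adjusted p 0.0551, the highest over the alternatives, which began at 5.02e-19. The other members overlapped, with edgeR adjusted p of 0.421 for Ncam1 and higher for the rest.

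The RSC-labeled Synpr-low cells were few. They numbered 34, of which 10 had a Gfra1 count (29.4%, 95% exact Clopper-Pearson interval 15.1 to 47.5), and 65 of their 102 Gfra1 counts (63.7%) came from 3 cells. Of 241 LEC-labeled Synpr-low cells, 18 had a count (7.47%, interval 4.49 to 11.5), with 36 of 72 counts in 3 cells. Of the 173 unlabeled Synpr-low cells, 31 had a count (17.9%). Marker levels also differed between these cells. The summed core markers were 920 to 1944 CPM in RSC-labeled and 236 to 504 CPM in LEC-labeled Synpr-low cells, a count of Synpr was present in 22 of 34 (64.7%) against 59 of 241 cells (24.5%), and 9 of the 10 RSC-labeled cells with Gfra1 held Synpr counts below the limit. Oligodendrocyte markers ranged from 30.5 to 5027 CPM in RSC-labeled Synpr-low cells, with projection mouse 1 the highest, and from 92.6 to 179 CPM in LEC-labeled ones. Shell markers were 1186 to 1445 CPM in RSC-labeled and 1861 to 2852 CPM in LEC-labeled Synpr-low cells, and inhibitory neuron markers 1.77 to 8.62 against 0.0971 to 0.502 CPM. Layer 6 markers were 24.7 to 194 CPM in RSC-labeled, 38.3 to 48.1 CPM in LEC-labeled and 215 to 629 CPM in unlabeled Synpr-low cells. The layer 6-like Cluster 3 held 5 of the 34 RSC-labeled, 4 of the 241 LEC-labeled and 73 of the 173 unlabeled Synpr-low cells. Endothelial markers reached 13.3 CPM in RSC-labeled Synpr-low cells of 1 mouse and 0.0558 CPM in LEC-labeled ones. The part of these marker lists and of the cluster make-up in the Gfra1 differences between labels was not tested.

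The RSC against LEC difference of Gfra1 itself differed between the classes. The difference in log2 fold change, Synpr-high minus Synpr-low, was -3.87 (SE 0.52, edgeR adjusted p 0.0101), and the same sign was seen in 3 of 3 mice from their own ratios. With the mouse as a block it was -3.99 (adjusted p 0.00235). Of 13162 genes, 16 were called by this test (0.122%), and no other member was. Since the study picked Gfra1 on these cells, its adjusted p-values here are not independent evidence. The order of the Gfra1 levels was LEC-labeled, unlabeled and RSC-labeled Synpr-high cells, which did not differ beyond their spread, then RSC-labeled, unlabeled and LEC-labeled Synpr-low cells, each step of which was larger than the SDs.

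**Figure D4:**
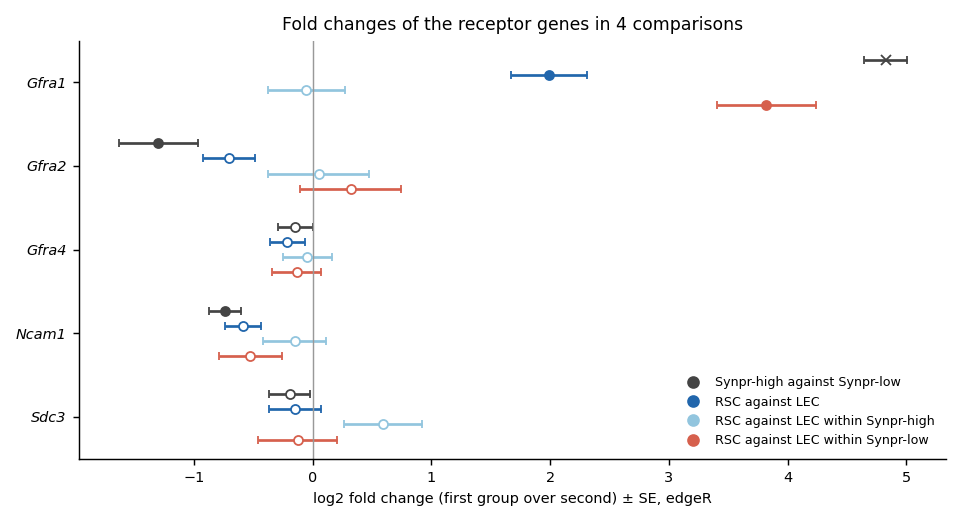
Log2 fold change with its SE for each receptor gene in the comparisons of Synpr classes and of projection labels, filled where the edgeR adjusted p was under 0.05, open where it was not, and a cross for Gfra1 by Synpr class, which was not tested. Gfra1 was at 4.83 by class, 1.99 by projection, -0.05 within Synpr-high and 3.82 within Synpr-low cells, and Ret is not drawn.

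Co-detection asked which partners a Gfra1 cell held, since GFRα1 has no intracellular part of its own. Ret was rare beside Gfra1. In thinned cells 9 of 394 Gfra1-positive cells had Ret (2.28%, 95% exact interval 1.05 to 4.29) against 1 of 533 Gfra1-negative cells (0.188%). By mouse the share in Gfra1-positive cells was 0% in 1 mouse and up to 3.42%, with a mean of 2.07% ± 1.46 (SD, n = 4). Inside the Synpr-high class the pooled shares were 8 of 360 cells (2.22%, interval 0.964 to 4.33) against 1 of 46 (2.17%, interval 0.055 to 11.5). Over mice they were 2.06% ± 1.38 and 2.27% ± 4.55 (SD, n = 4), which did not differ beyond their spread. Without thinning, 16 of 481 Gfra1-positive cells (3.33%) and 4 of 530 Gfra1-negative cells (0.755%) had Ret. Read from the side of Ret, 16 of the 20 cells with Ret had Gfra1, 10 had Gfra2, and all 20 had Gfra4 and Ncam1, which were found in 91.9% and 91.99% of all cells. In thinned cells, 6 of 10 cells with Ret had Ncam1 (60.0%, interval 26.2 to 87.8) against 735 of 917 without (80.2%).

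Ncam1 was present in most Gfra1-positive cells. In thinned cells it was detected in 288 of 394 (73.1%, 95% exact interval 68.4 to 77.4) against 453 of 533 Gfra1-negative cells (85.0%, interval 81.7 to 87.9). Over mice the shares were 73.3% ± 8.68 and 84.4% ± 4.02 (SD, n = 4), higher in Gfra1-positive cells in 1 of 4 mice. Within Synpr-high cells 262 of 360 Gfra1-positive (72.8%) and 35 of 46 Gfra1-negative cells (76.1%, interval 61.2 to 87.4) had Ncam1. Over mice these Synpr-high shares were 72.8% ± 8.22 and 75.4% ± 15.1 (SD, n = 4), so the gap was within their spread. Without thinning, the shares were 91.5% and 92.5%.

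Gfra2 was less common in Gfra1-positive than in Gfra1-negative cells when both classes were pooled. In thinned cells Gfra2 was found in 115 of 394 Gfra1-positive (29.2%) and 296 of 533 Gfra1-negative cells (55.5%). Within Synpr-high cells it was found in 95 of 360 (26.4%) against 15 of 46 (32.6%, 95% exact interval 19.5 to 48.0), and within Synpr-low cells in 20 of 34 (58.8%) against 281 of 487 (57.7%). Over mice the Gfra2 shares were 27.1% ± 8.45 and 34.1% ± 27.3 in Synpr-high cells (SD, n = 4). In Synpr-low cells they were 57.3% ± 6.93 and 59.2% ± 8.73. At a given class the shares thus did not differ beyond their spread over mice.

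Synpr-high cells most often combined Gfra1 with Gfra4. Among 406 thinned Synpr-high cells, 228 (56.2%) had Gfra1 and Gfra4 without Gfra2, 82 (20.2%) had all 3 receptors, 37 (9.11%) had Gfra1 alone and 5 (1.23%) had none. Among 521 thinned Synpr-low cells, 245 (47.0%) had Gfra2 and Gfra4 without Gfra1, 172 (33.0%) had Gfra4 alone, 15 (2.88%) had all 3 and 34 (6.53%) had none.

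**Figure D5:**
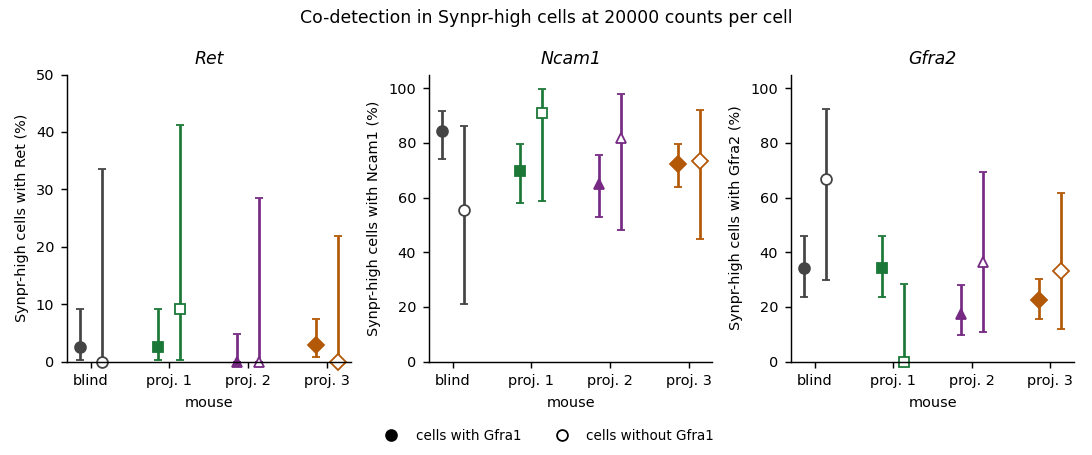
Share (%) of Gfra1-positive and Gfra1-negative Synpr-high cells with Ret, Ncam1 or Gfra2, in cells thinned to 20000 counts. Each mouse has 1 point, with its exact Clopper-Pearson interval as a bar. Ret was found in at most 2.99% of Gfra1-positive Synpr-high cells of any mouse. Ncam1 was found in 72.8% of Gfra1-positive and 75.4% of Gfra1-negative Synpr-high cells on average over mice.

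Ligands were scarce in the same neurons. Gdnf had 1 count in 1 of 1011 cells, and the neurturin gene Nrtn 35 counts in 2 cells. Artn, which encodes artemin, was found in 30 cells (2.97%, 95% exact interval 2.01 to 4.21), 10 Synpr-high and 20 Synpr-low, in all 4 mice. The persephin gene Pspn and Gfral, the receptor of the stress hormone Gdf15, had 0 counts, which allows up to 0.297% of cells with a count, and Gdf15 had 35 counts in 7 cells. Nrtn, Pspn and Gfral are listed in 1 table only and were taken as 0 in the other. The limit of 0.297% counts all 1011 cells and is too low if the cells of the other table were not measured for them. Gfra3, the artemin receptor, is a name on the pathway list below but was not among the genes tested, and its levels are not reported here.

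Other genes of the pathway came from a list of 71 names, of which 68 are in the tables and 53 were tested by Synpr class. Of these, 10 were called (18.9%, beside 8.81% of all genes), 4 higher and 6 lower in Synpr-high cells, with a median log2 fold change of -0.07 over the list and -0.00 over all genes. The count fell to 3 without projection mouse 1 and to 4 without projection mouse 3. Genes named here have edgeR adjusted p-values. Higher were Gas1, a membrane protein related to the GFRα receptors (log2 fold change 4.86, adjusted p 0.0328), Stat3, a transcription factor reached by many kinases (1.14, 0.0124), Hs6st1, which sulfates heparan chains (0.84, 0.0219), and Gap43, a growth cone protein (0.78, 3.49e-04). Lower were Ext1, which builds the heparan sulfate chain, at 6.14 ± 0.627 against 65.9 ± 11.9 CPM (SD, n = 4; -3.41, 5.33e-06), the receptor phosphatase Ptprf (-1.38, 0.00706), the sorting receptor Sorl1 (-1.35, 7.38e-04) and focal adhesion kinase Ptk2 (-0.66, 0.0300). Ext1 thus had the largest absolute log2 fold change among the called genes for heparan chains.

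By projection, 4 of 53 listed genes were called (7.55%, beside 3.95% of all genes). The small GTPase Nras was higher in RSC-labeled cells (log2 fold change 0.71, edgeR adjusted p 0.0492). Lower were Ext1 (-2.59, 0.00147), the heparan sulfotransferase Hs6st2 (-0.84, 0.0243) and Dok5, an adaptor of Ret (-0.78, 0.0275). The count fell to 2 without projection mouse 1 and to 1 without either of the other mice. Within either Synpr class, 0 of 53 were called by edgeR at the adjusted threshold, with list medians of 0.14 in Synpr-high and -0.07 in Synpr-low cells, beside 0.01 and -0.07 over all genes. Ext1 had the opposite sign within Synpr-high cells, where it was 5.74 ± 1.34 CPM in RSC-labeled and 0.480 ± 0.187 CPM in LEC-labeled cells (SD, n = 3), higher in 3 of 3 mice (log2 fold change 3.497, SE 0.56, edgeR adjusted p 0.0574). DESeq2 and the edgeR fit without a filter called it there. Its LEC-labeled Synpr-high sums held only 3, 1 and 1 counts in projection mice 1 to 3. Within Synpr-low cells it was 48.1 ± 22.5 and 77.9 ± 25.3 CPM (SD, n = 3; -0.70, adjusted p 0.457), and the difference between the classes was called for Ext1 alone among the 53 listed genes (4.20, SE 0.69, edgeR adjusted p 0.0174).

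The genes whose pattern was most like that of 5 of the receptors were taken by Pearson correlation of log2 levels, centred within mouse, over 20 sums of mouse, label and class. Gfra1 was closest to Col11a1 (0.977), Lypd6b (0.976) and Rgs12 (0.974). Gfra2 was closest to Cryab (0.941), Gabra5 (0.921) and St8sia5 (0.920), and Ncam1 to Rxrg (0.920), Zcchc18 (0.897) and AI413582 (0.877). Gfra4 reached 0.841 with Pink1 and Sdc3 0.821 with E130307A14Rik. The sums share libraries and mice, so these values are a description over 13181 genes.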

How the data were processed

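The study prepared cells of 13 plates with barcoded primers, PCR and 2 sequencing runs. The deposited tables hold whole-number counts per gene and cell that the authors made by alignment with STAR, after tagging reads to barcodes and molecular identifiers, and the submitters' processing notes name the genome build NCBIM37 and Seurat. Whether identifiers were collapsed is not given in the sources used here, and counts were treated as reads. Spike-ins were left out, and a gene listed in 1 table was taken as 0 in the other. Intervals and floors (3 counts) cover counting error only, and where cells of several mice are pooled they leave out the spread between mice. The use of strand is not stated: in GENCODE M21 (GRCm38) an antisense gene overlaps exons of Gfra1 (Gm16277, chromosome 19), Ncam1 (Gm11149, chromosome 9) and Sdc3 (Gm12970 and Gm26716, chromosome 4), and the miRNA gene Mir6973b lies on the strand of Gfra4 (chromosome 2). Reads of such pairs cannot be told apart without strand. No gene overlaps exons of Gfra2 (chromosome 14) or Ret (chromosome 6). Mice were taken from the deposited cell annotation.

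Excitatory neurons were kept by a minimum of 1 count of both Snap25 and Slc17a7 (27 were lost on the first and 74 more on the second). Counts were summed per mouse and group (at least 5 cells), filtered by filterByExpr, scaled by TMM and fitted with edgeR 4.0.16 in R 4.3.3 (quasi-likelihood test, no block, Benjamini-Hochberg threshold 0.05). Synpr, which makes the classes, was not tested. Thinning to 20000 counts removed 84 cells, of which the blindly sampled mouse gave 67. Clusters were made in Seurat 5.3.0 with 2000 variable features, 30 components and resolution 0.1. Shares have exact Clopper-Pearson intervals (scipy 1.17.1). The receptor genes, pathway and marker lists were chosen with earlier results of these data known. Named genes were the receptors, the ligands, called pathway genes (at most 8 by absolute log2 fold change per comparison) and the 3 most alike genes per receptor, of which Gfra4 and Sdc3 are given by the first and those of Ret are not reported here. Alternatives were DESeq2 1.42.0, its size factors, no filter, a mouse left out, a mouse block, thinning, genes of both tables and Synpr limits of 100 and 400 CPM; leaving out Cluster 2 or Cluster 3 was chosen after seeing the data. The samples of a mouse pair by animal: deviations of same-mouse sums correlated at a median of 0.232 (0.204 to 0.631, 4 pairs) against -0.113 for other mice by Synpr class. The medians were 0.0449 against -0.0274 by projection and 0.0238 against -0.0140 by both. In each case the ranges of same-mouse and other-mouse pairs overlapped. The main fits had no block and so did not use the pairing. On simulated counts the test recovered, by Synpr class over 13641 genes, 58% of 4-fold and 11.5% of 2-fold changes, by projection over 13976 genes 60.5% and 22%, and within the classes over 13163 genes 44.5% and 3% (Synpr-high) and 44% and 4% (Synpr-low).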

Additional observations from a re-analysis of the deposited data

Results flagged for a closer look

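Among 30 groups of 4 mice, 2 held a mouse past Dixon's limit, where chance alone gives about 1 in 20 groups. Gfra2 in Cluster 2 was 173 CPM in the blindly sampled mouse against 68.1, 78.6 and 79.6 CPM in the projection mice. The blindly sampled mouse had the lowest depth, and the study does not state whether its plates had a sequencing run of their own. Ret in Cluster 3 was 1.44 CPM in projection mouse 1 and 0 in the other mice. It came from 6 counts in 1 cell, and with the other mice at 0 the limit is passed by construction, so it tests nothing there. The difference of Gfra1 between RSC-labeled and LEC-labeled cells was not the same in the Synpr classes, with a difference of log2 fold changes of -3.87 (SE 0.52, edgeR adjusted p 0.0101). That adjusted p is not independent evidence, since the study picked Gfra1 on these cells as a marker.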

How the results depend on the processing

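The mice were 4 by Synpr class and 3 by projection, and the RSC-labeled Synpr-low and LEC-labeled Synpr-high sums rest on 34 and 45 cells, which limits what the within-class comparisons could call. The depth of the blindly sampled mouse was the lowest. Of the receptor values under alternatives, 225 kept direction and side of the threshold, 14 changed sign, 9 lost the call, 6 gained it and 2 (Gfra1 by Synpr class, without Cluster 2 or Cluster 3 cells) moved; causes were not tested.

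With the mouse as a replicate block, 1996 genes were called by Synpr class (1202 without), and the block changed no call of a receptor. DESeq2 called 1145 genes by projection, 30 within Synpr-high and 428 within Synpr-low cells, and 8 and 1 genes of the pathway list by projection and within Synpr-high cells. Without the filter on low counts, 9 genes were called within Synpr-high and 128 within Synpr-low cells, and 1 of the pathway list (Ext1) within Synpr-high. Leaving out a mouse gave 544 to 1581 genes by Synpr class (605 without projection mouse 1, 655 without projection mouse 2 and 544 without projection mouse 3), 59 to 391 by projection (63 without projection mouse 2 and 59 without projection mouse 3), 4 to 20 within Synpr-low (20, 9 and 4 without projection mice 1, 2 and 3, beside 52 with all) and 0 within Synpr-high cells. For the pathway list it gave 3 to 12 genes by Synpr class and 1 to 2 by projection.

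The share of Gfra1-positive cells with Ret was 0.564% at 10000 counts and 0.373% with at least 2 counts required, and that with Ncam1 was 91.4% without thinning, 56.3% at 10000 counts and 52.5% with at least 2 counts.

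Signs changed for values that were not called. By Synpr class, Sdc3 was at 0.61 without Cluster 2 cells among Synpr-low cells. Within Synpr-high cells, Gfra4 was at 0.10 in thinned cells and 0.026 at a Synpr limit of 400 CPM, Gfra2 at -0.13 in thinned cells and -0.043 at 100 CPM, and Gfra1 at 0.034 at 100 CPM. Within Synpr-low cells, Ret was at 0.034 by DESeq2. Leaving out a mouse gave -0.35 to 0.049 for Sdc3 by projection, -0.13 to 0.045 for Gfra4 and -0.36 to 0.55 for Gfra2 within Synpr-high cells, and -0.30 to 0.071 for Gfra4, -0.80 to 0.19 for Sdc3 (0.058 without projection mouse 3) and -0.25 to 0.56 for Gfra2 within Synpr-low cells.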

Other observations

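The 101 cells without Snap25 or Slc17a7 counts had a median total of 4813 counts. Gfra1 was found in 6 of them (5.94%), Gfra2 in 9, Gfra4 in 34, Ncam1 in 25, Sdc3 in 18 and Ret in 0. They include 5 cells with Snap25 and Gad1 or Gad2 counts and no Slc17a7, with a median total of 188305. Of these 5, 0 held Gfra1 or Ret, 1 held Gfra2, 3 held Gfra4, 4 held Ncam1 and 3 held Sdc3.

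Clustering at resolution 0.2 divided the layer 6-like Cluster 3 into 88 and 29 cells, while Clusters 1 and 2 kept 436 and 458 cells.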
